A study of Arabidopsis thaliana with 11 samples.

Results

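Guard-cell-enriched samples of Arabidopsis thaliana, accession Col-0, were compared after a single late round of salt and after tap water. The comparison takes 7 of the 11 samples of the series, and all 28718 loci of the authors' normalised table were tested. Plants of the 1x salt group (3 samples) had their pots soaked in 200 mM NaCl for 2 h on day 13 and again on day 14, which was their first salt. Plants of the no-salt group (4 samples) received tap water. Both groups were 4 to 5 weeks old when the experiment began, grew with 12 h of light, and were taken on day 15, 4 h into the light period. Another group of 4 samples, 3x salt, had earlier, weaker salt rounds before the same last round and is used only where the single round is set against it. No genotype other than Col-0 and no transgene is named in the labels. The material is enriched for guard cells and not a pure preparation. No label states that the samples within a group were separate plants, so each p-value rests on the spread among these 7 samples, part of which may be technical.

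Guard cells flank the stomatal pore and set its width by moving potassium, chloride, nitrate and malate across their membranes. Salt in the soil lowers the water potential around the root and loads the shoot with sodium and chloride, and abscisic acid (ABA), made when water is short, drives the anion and potassium release that closes the pore. Guard cells also close the pore on contact with microbial patterns, and they share salicylate, jasmonate and ethylene signalling with the rest of the leaf.

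Each sample had its own 1-colour Agilent array, and 66.24% to 80.25% of the 43803 non-control spots of an array lay well above background, the highest share and 442 outlier spots both being on 1x salt 3 (9 to 29 outlier spots on the other 6). Of 14 guard cell markers, 13 were well above background on all 7 arrays, FAMA, KAT1, GORK and SLAC1 among them. All 14 vascular markers were also above background on all 7 arrays, so the preparation held transcripts of other cell types. The mean log2 level of the 14 vascular markers was 11.9, 12.1 and 12.3 in 1x salt 1 to 3, against 11.2, 11.4, 11.4 and 11.4 in no salt 1 to 4, and the ranges did not overlap. The 14 guard cell markers averaged 10.3, 10.2 and 10.6 in 1x salt, against 9.9, 10.3, 10.3 and 10.3 in no salt. Their ranges overlapped. The 8 pavement cell and trichome markers, 6 of them above background on all 7 arrays, averaged 8.55, 8.38 and 8.55 in 1x salt, against 8.22, 8.33, 8.43 and 8.37 in no salt. The part of these cell types in the results was not tested. In samples of mixed cells, a change in the number of cells of a type and a change in RNA per cell cannot be told apart.

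The 3 1x salt columns were less alike than the 4 no-salt columns. The standard deviation of the log2 differences over all loci was 0.53 between 1x salt 1 and 2, 0.63 between 1 and 3, and 0.44 between 2 and 3, whereas pairs of no-salt columns gave 0.24 to 0.39. Relative to the range of the 4 no-salt values, 426 loci lay at least 1 (log2) above it and 452 at least 1 below it in 1x salt 1. In 1x salt 2 the counts were 584 and 414, and in 1x salt 3 they were 1083 and 582. Only 185 loci lay that far above the range in all 3 columns, and 107 that far below. Columns 2 and 3 shared a further 226 loci above and 248 below that column 1 did not, while 187 loci above and 297 below were seen in column 1 alone, and 654 above and 191 below in column 3 alone. Column 3 had the most loci beyond the range in both directions.

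**Figure D1:**
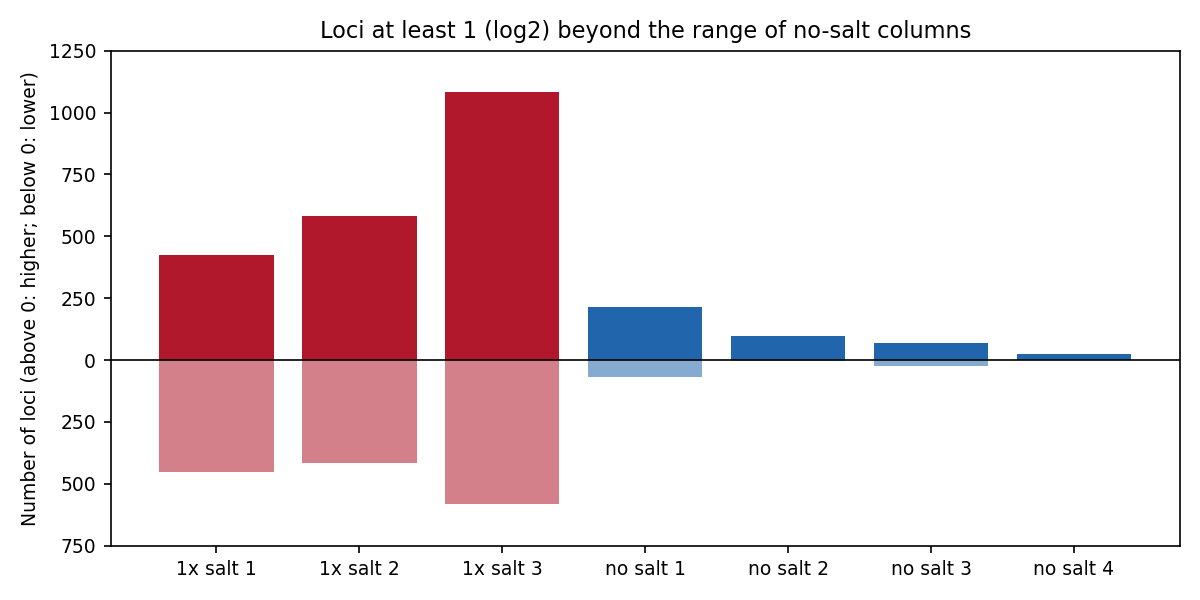
Number of loci at least 1 on the log2 scale above (bars up) or below (bars down) the range of the no-salt columns, for each 1x salt column (red) and, for comparison, for each no-salt column (blue) against the other 3. The 1x salt columns reach 426, 584 and 1083 loci above, all more than the 26 to 214 of the no-salt columns.

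With limma on the deposited log2 values of the 7 columns and Benjamini-Hochberg adjustment over all loci, 1957 loci (6.81%) passed an adjusted p of 0.05. Of these, 975 (3.40%) rose and 982 (3.42%) fell in 1x salt relative to no salt, and in all 1957 the 1x and no-salt values did not overlap. Over all loci, 19.9% had values that did not overlap between the groups. The median change of the called loci was 0.86, 0.96 and 0.95 in 1x salt 1 to 3 for those that rose, and -0.77, -0.91 and -1.01 for those that fell. A change beyond 1 was reached by 429 rises and 436 falls, and a change beyond 2 by 83 and 84. The count rose to 3652 when 1x salt 1 was left out, and it was 1195 without 1x salt 2, 1181 without 1x salt 3, 1012, 911 and 943 without no salt 2, 3 and 4, and 1666 without no salt 1. Samples 1 to 3 of both groups shared a slide by number, and with that number as a block, which gives no weight to no salt 4, 514 loci (1.79%) were called, 323 of them higher and 191 lower. Averaging no salt 2 to 4 to 1 sample and 1x salt 2 and 3 to 1 sample left 0 calls (2935 loci at an unadjusted p under 0.05).

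Xyloglucan endotransglucosylases (XTH) cut and rejoin the xyloglucan chains that tie cellulose fibres together, and expansins loosen the same network. Of 31 such genes 12 rose, 1 fell and 18 did not pass, against 3.40% and 3.42% of all loci, with a list median of 0.40 (all loci 0.01). Without 1x salt 1, 13 rose and 6 fell, and without 1x salt 2, 1x salt 3 or no salt 2, 3 or 4 the fall was lost. XTH33 (AT1G10550) stood at 10.58, 10.54 and 10.45 in 1x salt 1 to 3, against 5.94, 6.06, 6.34 and 6.26 in no salt 1 to 4, on the deposited log2 scale. The 3 1x values lay close together and more than 4 above every no-salt value, a rise of 4.37 (20.7-fold, SE 0.12, adjusted p = 2.63e-05). XTH25 (AT5G57550) had 11.25, 11.52 and 10.996 in 1x salt, against 7.58, 7.56, 7.89 and 7.56 in no salt (rise 3.61, SE 0.15, adjusted p = 0.000124).

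A pair of highly expressed members moved in the same way. XTH4 (AT2G06850) reached 14.48, 14.19 and 13.76 in 1x salt, against 11.09, 11.51, 11.44 and 11.23 in no salt (rise 2.82, SE 0.19, adjusted p = 0.000521). XTH9 (AT4G03210) reached 15.04, 14.86 and 14.83, against 12.12, 12.48, 12.57 and 12.66 (rise 2.46, SE 0.14, adjusted p = 0.000361). For these 4 genes column 1 was as high as columns 2 and 3, and each kept its call with the replicate block and without any 1 sample. XTH30, XTH6, XTH27, XTH15, XTH16, XTH23 and XTH24 rose by 0.94 to 1.90, and the expansin EXPA16 by 1.46. EXPA3 was the member that fell, by 0.66. With the replicate block 8 of the 12 rises remained called, and the calls of EXPA16, XTH23, XTH16, XTH24 and EXPA3 were lost (adjusted p = 0.068, 0.119, 0.0947, 0.0684 and 0.19). The calls of XTH24 and EXPA3 were also lost without any of no salt 2 to 4 or 1x salt 2 or 3 (highest adjusted p = 0.0648 and 0.108), and that of XTH16 without 1x salt 2 (0.0533).

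**Figure D2:**
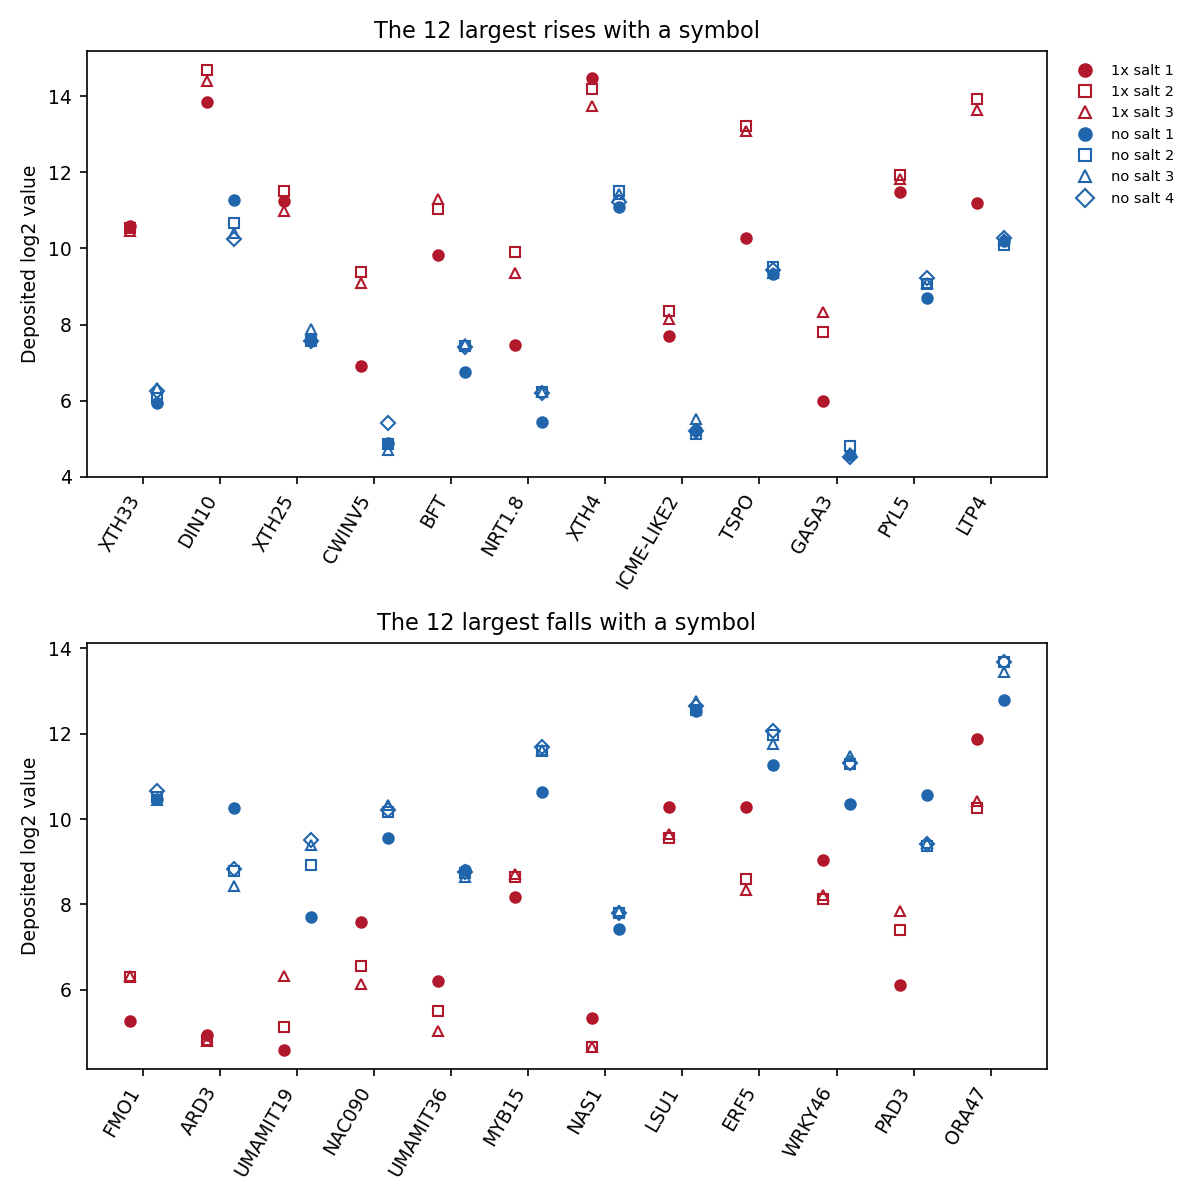
Deposited log2 values in every 1x salt column (red, left of each gene) and no-salt column (blue, right) of the 12 largest rises (top) and the 12 largest falls (bottom) among called loci with a symbol. XTH33, XTH25 and XTH4 are tight in 1x salt, while CWINV5, NRT1.8, TSPO, GASA3 and LTP4 rose far less in 1x salt 1 than in 1x salt 2 and 3.

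Among 17 genes of nitrate transport and reduction, 6 rose, 2 fell and 9 did not pass, against 3.40% higher and 3.42% lower over all loci. The same shares of all loci stand beside each list count against no salt below. Nitrate reductase turns nitrate into nitrite, the first step of its assimilation, and nitrate is also an anion that guard cells store and release. NIA2 (AT1G37130), the main nitrate reductase, stood at 10.73, 10.79 and 10.56 in 1x salt, against 12.14, 12.18, 12.18 and 12.22 in no salt, a difference of -1.49 (SE 0.09, adjusted p = 0.000385). NIA1 (AT1G77760), the other nitrate reductase, stood at 10.17, 10.13 and 9.90, against 11.36, 11.37, 11.40 and 11.35, a difference of -1.30 (SE 0.10, adjusted p = 0.000726). All 3 1x columns lay below all 4 no-salt columns by more than 1 in both genes.

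These were the 2 falls of the list. The factors LBD37, LBD38 and LBD39, which nitrate induces and which repress anthocyanin regulators when overproduced, all rose. LBD38 (AT3G49940) had 10.66, 11.53 and 11.72 in 1x salt, against 9.19, 9.28, 9.54 and 9.51 in no salt (rise 1.93, SE 0.25, adjusted p = 0.00541). LBD39 (AT4G37540) rose by 1.49 (adjusted p = 0.00509) and LBD37 (AT5G67420) by 1.33 (adjusted p = 0.0107). The transporter NRT1.4 (AT2G26690), known for nitrate storage in the petiole, had 13.10, 13.74 and 13.65, against 11.99, 12.20, 12.18 and 12.32 (rise 1.32, SE 0.17, adjusted p = 0.00498). NRT1.8 (AT4G21680), which takes nitrate out of the xylem, had 7.47, 9.91 and 9.35, against 5.45, 6.22, 6.24 and 6.21. It rose by 2.88 (SE 0.54, adjusted p = 0.0214), with column 1 at 7.47 much nearer to no salt than the other two. The regulator NLP7 (AT4G24020) rose by 0.38 (adjusted p = 0.0466).

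In the ion list, 3 anion transport genes rose. SLAH3 (AT5G24030), a nitrate- and chloride-conducting channel of the guard cell plasma membrane, had 13.34, 13.98 and 13.90 in 1x salt, against 10.89, 11.36, 11.33 and 11.21 in no salt (rise 2.54, SE 0.19, adjusted p = 0.000726). CLC-A (AT5G40890), the exchanger that loads nitrate into the vacuole, had 11.46, 11.83 and 11.92, against 10.42, 10.54, 10.84 and 10.76 (rise 1.1, SE 0.16, adjusted p = 0.00741). SLAH2 (AT4G27970), a nitrate-selective channel detected (well above background) on all 3 1x arrays but 1 of the 4 no-salt arrays, had 6.25, 7.14 and 6.56, against 5.31, 5.08, 5.67 and 5.44 (rise 1.28, SE 0.23, adjusted p = 0.0178). No value of 1x salt overlapped no salt in these 3 genes, which was so for every called locus. Of all 32 ion transport genes 4 rose, the potassium channel GORK (AT5G37500) among them (rise 0.71, SE 0.15, adjusted p = 0.0373).

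The replicate block kept NIA1, NIA2, NRT1.4, LBD38, LBD39, SLAH3 and CLC-A and lost the calls of LBD37, NRT1.8, NLP7, SLAH2 and GORK (adjusted p = 0.102, 0.0506, 0.177, 0.124 and 0.111), so that 3 nitrate genes rose and 2 fell, and 2 ion genes rose. The calls of NRT1.8, NLP7 and GORK were lost without any 1 sample other than 1x salt 1 (highest adjusted p = 0.074, 0.134 and 0.112), and that of SLAH2 without no salt 2, no salt 4 or 1x salt 3 (0.0574). The ion list had 6 rises and 1 fall without 1x salt 1, and 2 rises without 1x salt 3, no salt 2 or no salt 4. With scanner values the ion list had 3 rises and 2 falls, and GORK did not pass (adjusted p = 0.118). The best known genes of sodium handling did not pass. The sodium/proton exchanger SOS1 had 10.08, 9.86 and 9.56 in 1x salt, against 10.17, 10.10, 9.75 and 9.72 in no salt (difference -0.10, SE 0.17, adjusted p = 0.794). The vacuolar exchanger NHX1 differed by -0.21 (SE 0.12, adjusted p = 0.391), and the sodium transporter HKT1, detected on 2 of the 3 1x arrays and 1 of the 4 no-salt arrays, by -0.05 (SE 0.23, adjusted p = 0.934). The anion channel SLAC1 (AT1G12480, listed as OZS1) and the inward potassium channel KAT1 did not pass, with differences of 0.21 and 0.15 (SE 0.17 and 0.16, adjusted p = 0.565 and 0.675).

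**Figure D3:**
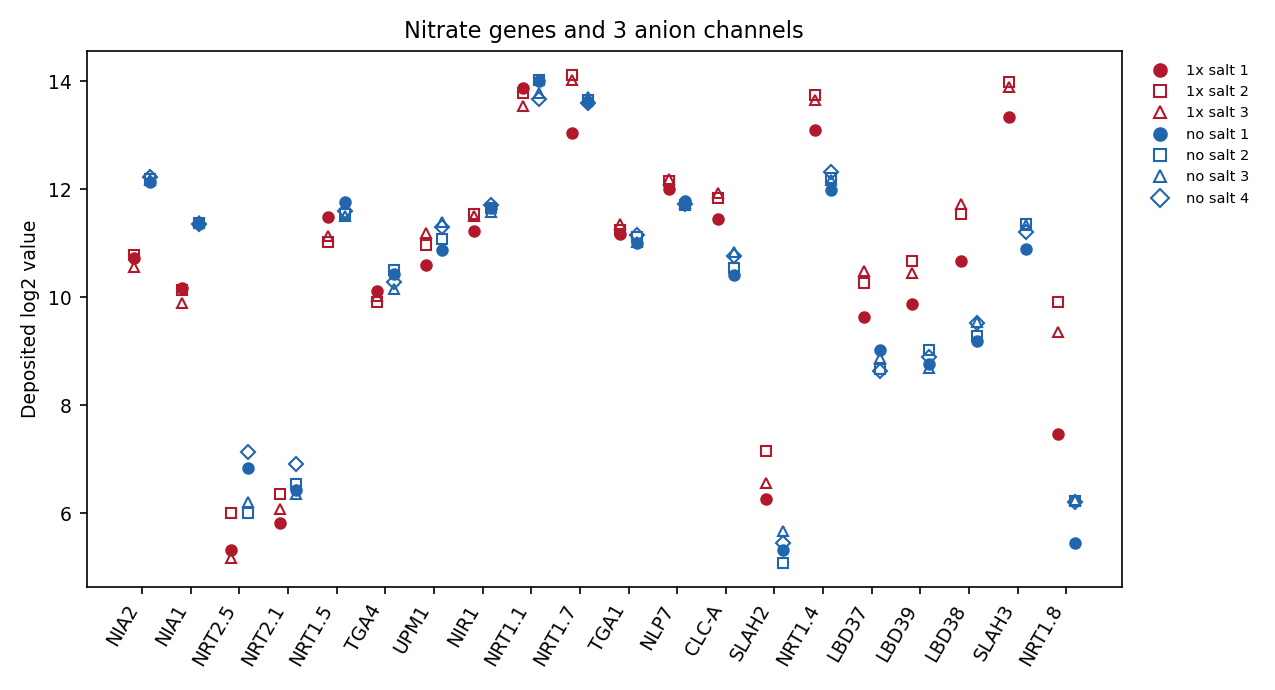
Deposited log2 values of the 17 nitrate genes and of SLAH3, CLC-A and SLAH2 in every 1x salt column (red, left of each gene) and no-salt column (blue, right), ordered from the largest fall to the largest rise. NIA1 and NIA2 lie more than 1 lower in 1x salt, and NRT1.4, LBD37 to LBD39, SLAH3 and NRT1.8 lie higher.

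Among genes of sugar supply and low energy, 4 of 19 rose and 15 did not pass, with 17 of the 19 differences above 0 (median 0.24). DIN10 (AT5G20250), a dark-induced member of the raffinose synthase family, had 13.84, 14.69 and 14.41 in 1x salt, against 11.26, 10.66, 10.41 and 10.25 in no salt (rise 3.67, SE 0.28, adjusted p = 0.000804). ASN1 (AT3G47340), the asparagine synthetase that darkness and sugar shortage induce, had 12.41, 12.99 and 12.65, against 10.30, 10.25, 10.14 and 9.97 (rise 2.52, SE 0.15, adjusted p = 0.000385). Both lay more than 2 above every no-salt value and kept their calls with the replicate block and without any 1 sample. MCCA (AT1G03090) and DIN4 (AT3G13450), which act in the breakdown of branched amino acids, rose by 0.57 and 0.63 (adjusted p = 0.0174 and 0.0323), calls lost with the block (0.115 and 0.145) and, for both, without no salt 3 or 4. The list had 8 rises without 1x salt 1 and 2 without no salt 3 or no salt 4.

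Of 13 genes of proline, raffinose and inositol, 3 rose, 1 fell and 9 did not pass. ERD5 (AT3G30775), the proline dehydrogenase PRODH1 that begins proline breakdown, had 11.65, 12.34 and 12.33 in 1x salt, against 10.27, 10.50, 10.26 and 10.38 in no salt (rise 1.76, SE 0.18, adjusted p = 0.00234). P5CS1 (AT2G39800), the rate-limiting step of proline synthesis, had 13.34, 13.49 and 13.37, against 12.85, 12.61, 12.71 and 12.61 (rise 0.70, SE 0.10, adjusted p = 0.00717). P5CR (AT5G14800), the next step, rose by 0.68 (adjusted p = 0.0118). The inositol phosphate synthase gene MIPS2 (AT2G22240) also changed and fell by 0.89 (SE 0.11, adjusted p = 0.00451). With the replicate block ERD5 alone of the 13 stayed called, and P5CS1, P5CR and MIPS2 had adjusted p = 0.0867, 0.0925 and 0.0688. Without 1x salt 1, 4 genes of this list rose and 6 fell. The sugar exporter SAG29 (AT5G13170), also known as SWEET15, had 6.74, 7.02 and 6.89 in 1x salt, against 5.45, 5.55, 5.64 and 5.58 in no salt, where 1 array detected it (rise 1.32, SE 0.10, adjusted p = 0.000804).

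Some of the largest rises had a very unequal size in the 3 1x columns. The invertase gene CWINV5 (AT3G13784), whose family splits sucrose in the cell wall, had 6.90, 9.38 and 9.08 in 1x salt, against 4.89, 4.86, 4.69 and 5.41 in no salt, where it was not detected. The rise between the group means was at least 11.3-fold (adjusted p = 0.0118). GASA3 (AT4G09600), a small cysteine-rich peptide gene, had 5.98, 7.81 and 8.34, against 4.58, 4.80, 4.61 and 4.51, again undetected in no salt. Its rise between the group means was at least 6.74-fold (adjusted p = 0.0186). In both, column 1 lay between no salt and the other two.

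TSPO (AT2G47770), a membrane protein known to be induced by ABA and osmotic stress, had 10.27, 13.22 and 13.08 in 1x salt, against 9.34, 9.51, 9.34 and 9.44 in no salt (rise 2.78, SE 0.66, adjusted p = 0.0495). LTP4 (AT5G59310), a lipid transfer protein gene, had 11.19, 13.93 and 13.63, against 10.20, 10.09, 10.26 and 10.28 (rise 2.71, SE 0.60, adjusted p = 0.0388). Their rises were near 1 in column 1 and over 3 in columns 2 and 3. Without 1x salt 1 the adjusted p of TSPO and LTP4 was 7.99e-05 for both, and without any other sample their calls were lost (up to 0.143 and 0.119). GASA3 lost its call without no salt 2, 3 or 4 or 1x salt 2 (up to 0.0693). With scanner values TSPO and LTP4 rose by 2.83 and 2.77 and did not pass (adjusted p = 0.0602 and 0.052). The block ended all 4 calls (0.0767 for CWINV5, 0.0921 for GASA3, 0.139 for TSPO and 0.133 for LTP4). BFT (AT5G62040), a homologue of the flowering gene TFL1, and ICME-LIKE2 (AT3G02410), a methylesterase-like gene seen on 1 no-salt array, rose in a more even way. BFT had 9.83, 11.03 and 11.30, against 6.74, 7.43, 7.50 and 7.40 (rise 3.45, SE 0.36, adjusted p = 0.00234). ICME-LIKE2 had 7.69, 8.37 and 8.15, against 5.23, 5.12, 5.53 and 5.20 (rise 2.80, SE 0.18, adjusted p = 0.000465).

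ABA receptor genes moved in both directions, and few of the genes that ABA is known to induce passed. The receptor gene PYL5 (AT5G05440) had 11.47, 11.94 and 11.81 in 1x salt, against 8.71, 9.08, 9.09 and 9.24 in no salt (rise 2.71, SE 0.16, adjusted p = 0.000385). PYL6 (AT2G40330) had 9.09, 8.23 and 8.32, against 6.07, 6.72, 6.97 and 6.70 (rise 1.93, SE 0.27, adjusted p = 0.0073), and PYL4 (AT2G38310) rose by 1.33 (adjusted p = 0.0198). RCAR1 (AT1G01360), the receptor PYL9, had 9.73, 9.64 and 9.61, against 10.61, 10.50, 10.55 and 10.39 (difference -0.85, SE 0.09, adjusted p = 0.00265). All 4 receptor genes had values in 1x salt that did not overlap no salt, as every called locus did. Of 26 genes of ABA perception and early signalling, 4 rose and 2 fell. The others called were the phosphatases AHG1, undetected in no salt and at least 1.82-fold higher, and HAB2, which fell by 0.47 (adjusted p = 0.016 and 0.017).

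Of 25 ABA-responsive genes, 2 rose, 3 fell and 20 did not pass. RAB18 (AT5G66400), a dehydrin that ABA induces strongly, had 14.70, 15.54 and 15.67 in 1x salt, against 13.46, 13.93, 14.11 and 14.12 in no salt (rise 1.4, SE 0.27, adjusted p = 0.0224). Its call was lost without 1x salt 2 or 3 or no salt 2, 3 or 4 (up to 0.0805). LTI30, another dehydrin, rose by 0.77 (adjusted p = 0.0277). RD26, NAP and ERD14 fell by 0.60, 1.78 and 0.52 (adjusted p = 0.0159, 0.0262 and 0.0384). RD29B (AT5G52300, listed as LTI65), a standard marker of the ABA response, had 9.47, 10.71 and 9.68, against 9.69, 8.91, 8.06 and 8.98. Its groups overlapped and the difference of 1.04 (SE 0.42) did not pass (adjusted p = 0.219).

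The median of this list was -0.28 in 1x salt 1 and 0.30 and 0.22 in 1x salt 2 and 3. LEA7 (AT1G52690), a late embryogenesis protein gene chosen after its values were seen, stood at 8.29, 13.66 and 13.51 in 1x salt, against 7.24, 7.80, 7.21 and 7.70 in no salt (difference 4.33, SE 1.22, adjusted p = 0.0833), and passed without 1x salt 1 (7.99e-05). In ABA synthesis, NCED3 (AT3G14440), the rate-limiting dioxygenase, had 9.52, 9.43 and 9.46, against 9.96, 10.56, 10.54 and 10.91 (difference -1.03, SE 0.21, adjusted p = 0.027). NCED5, detected on 1 of 3 1x and 2 of 4 no-salt arrays, fell by 0.87, and AAO3, the last step, rose by 0.45 (adjusted p = 0.0157 and 0.0281), the 3 calls of 13 genes. With scanner values AHG1, ERD14 and NCED5 did not pass (adjusted p = 0.0939, 0.07 and 0.113). With the replicate block PYL5, RCAR1 and RAB18 stayed called, while PYL6, PYL4, AHG1, HAB2, LTI30, RD26, NAP, ERD14, NCED3, NCED5 and AAO3 did not (adjusted p from 0.0613 to 0.175). The 5 calls of the ABA-responsive list became 8 without 1x salt 1, 4 without no salt 1, 1 without no salt 3 or 4, and 0 without no salt 2, 1x salt 2 or 1x salt 3 (12 members had an unadjusted p under 0.05 with all 7). The 3 calls of ABA synthesis became 6 without 1x salt 1, 2 without no salt 1 or 1x salt 2, and 0 without any other sample. The 6 calls of ABA perception became 3 without no salt 3.

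Water channels and cuticle genes rose in part, in samples whose vascular markers were also higher. Of 23 aquaporins 5 rose. TIP2;1 (AT3G16240, listed as DELTA-TIP), a channel of the vacuole membrane, had 10.49, 10.74 and 10.03 in 1x salt, against 7.99, 8.15, 7.98 and 7.96 in no salt (rise 2.41, SE 0.17, adjusted p = 0.000587). The plasma membrane channels PIP1C (AT1G01620), PIP3 (AT4G35100), PIP2;4 and PIP2;5 rose by 1.36, 1.26, 1.19 and 0.53 (adjusted p = 0.000987, 0.00335, 0.0178 and 0.0444). The scanner values gave a smaller rise of 0.59 for PIP1C (adjusted p = 0.0131). The wax and cutin list of 34 had 4 rises and 1 fall (7 and 1 with scanner values): the fatty acid elongases KCS9 (AT2G16280) and KCS1 (AT1G01120) rose by 1.07 and 1.17 (adjusted p = 0.00136 and 0.0126), ABCG11 and MYB94 by 0.61 and 0.43, and MYB16 fell by 0.44. CER1 (AT1G02205), which makes the alkanes of leaf wax, was chosen after its values were seen and had 6.38, 8.81 and 8.87, against 5.63, 5.97, 5.98 and 5.62 (difference 2.22, SE 0.57, adjusted p = 0.0639). It passed without 1x salt 1 (adjusted p = 0.000199).

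Of the 14 vascular markers 6 rose, led by the 3 cellulose synthases of secondary walls. CESA4 (AT5G44030) had 9.24, 9.91 and 10.10 in 1x salt, against 7.73, 8.04, 8.27 and 8.11 in no salt (rise 1.71, SE 0.22, adjusted p = 0.00548). IRX1 (AT4G18780, CESA8) and CESA7 (AT5G17420) rose by 1.55 and 1.61 (adjusted p = 0.00243 and 0.00696), and XCP2, a protease of xylem vessels, by 1.46 (adjusted p = 0.0059). The phloem genes AHA3 and SUC2 rose by 0.73 and 0.70 (adjusted p = 0.0333 and 0.0406). None of the 8 genes of primary-wall cellulose synthesis passed with limma (0 also at an unadjusted p under 0.05), with differences from -0.30 to 0.02. With the replicate block 5 vascular markers (XCP1 in place of the phloem genes), 3 aquaporins and 1 wax gene were called. The calls lost were those of AHA3, SUC2, PIP3, PIP2;5, KCS1, ABCG11, MYB94 and MYB16 (adjusted p from 0.0502 to 0.188). With scanner values PIP2;5, SUC2 and ABCG11 did not pass (adjusted p = 0.053, 0.127 and 0.101). Without 1x salt 1, 9 aquaporins rose and 2 fell, and 8 wax genes rose and 3 fell. The aquaporin rises were 3 without 1x salt 2, no salt 2 or no salt 3. The wax calls were 3 without 1x salt 2, 1x salt 3, no salt 1 or no salt 4, and 2 without no salt 2 or 3.

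Of 15 cell cycle and DNA replication genes 4 rose and 11 did not pass (8 rose with scanner values), and 14 of the 15 differences were above 0, with medians of 0.45, 0.44 and 0.39 in 1x salt 1 to 3. The cyclin gene CYCD3;1 (AT4G34160) had 9.37, 9.12 and 8.99 in 1x salt, against 8.12, 8.34, 7.98 and 8.12 in no salt (rise 1.02, SE 0.13, adjusted p = 0.00502). PRL (AT4G02060), the replication helicase subunit MCM7, rose by 0.63, the ribonucleotide reductase gene TSO2 by 0.43 and the kinase gene AUR1 by 0.45 (adjusted p = 0.0169, 0.022 and 0.0391). All 4 calls were lost with the replicate block (0.0569 for CYCD3;1), 6 genes passed without 1x salt 1, 2 without 1x salt 2 or no salt 4, and 1 without 1x salt 3, no salt 2 or no salt 3. Of 16 early auxin genes, 3 fell: IAA1 (AT4G14560) by 1.31, WES1 (AT4G27260, GH3.5) by 1.06 and AXR3 (AT1G04250, IAA17) by 0.94 (adjusted p = 0.00304, 0.0044 and 0.0125, and 0.0972 for AXR3 with the block). Of 11 gibberellin and brassinosteroid genes, GASA6 and GASA14 (AT5G14920) rose by 2.07 and 1.00 (adjusted p = 0.036 and 0.0244). Both calls were lost without no salt 2, 3 or 4 or 1x salt 2 (up to 0.109 and 0.0825), and that of GASA14 also without 1x salt 3 and with the block (0.168). GASA6 did not pass with scanner values (adjusted p = 0.0554).

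The largest fall among called loci with a symbol was that of FMO1. FMO1 (AT1G19250), which makes the mobile signal of systemic acquired resistance, had 5.26, 6.31 and 6.33 in 1x salt, against 10.47, 10.51, 10.44 and 10.65 in no salt, a difference of -4.55 (SE 0.26, adjusted p = 0.000341). Of the 3 1x arrays 2 still detected it. ALD1 (AT2G13810), which acts before FMO1 in the same pathway, was detected on all 4 no-salt arrays and on no 1x array, a fall of at least 3.18-fold (adjusted p = 0.00511). PAD4 (AT3G52430), a hub of basal resistance, had 9.85, 9.14 and 8.89, against 11.23, 11.26, 11.50 and 11.70 (difference -2.13, SE 0.24, adjusted p = 0.00298).

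Of the 19 salicylate and systemic immunity genes, 8 fell and 11 did not pass, and all 19 differences were below 0 (median -0.66). PR2, SARD1, CBP60G, PR5 and PBS3 fell by 2.11, 1.99, 1.91, 1.29 and 1.13. With the block FMO1, PBS3 and PR5 stayed called, and PAD4 and ALD1 had adjusted p = 0.0582 and 0.0539. The number of falls was 14 without 1x salt 1, and 5 without no salt 2, 3 or 4. PAD3 (AT3G26830), the last enzyme of the antimicrobial compound camalexin, had 6.12, 7.41 and 7.84 in 1x salt, against 10.56, 9.36, 9.43 and 9.41 in no salt (difference -2.57, SE 0.46, adjusted p = 0.0177, and 0.142 with the block). Its call was lost without no salt 3 or 4 (up to 0.052).

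Of 16 WRKY factors of immunity, 5 fell, 1 rose and 10 did not pass. WRKY46 (AT2G46400) had 9.04, 8.13 and 8.21 in 1x salt, against 10.35, 11.28, 11.48 and 11.30 in no salt (difference -2.64, SE 0.32, adjusted p = 0.00435), and WRKY40 (AT1G80840) had 12.22, 11.54 and 11.62, against 13.52, 14.34, 14.53 and 14.30 (difference -2.38, SE 0.27, adjusted p = 0.00347). WRKY53, WRKY33 and WRKY38 fell by 1.97, 1.69 and 1.32, and WRKY29 (AT4G23550) rose by 1.07 (adjusted p = 0.00963). The falls were 8 without 1x salt 1 and 3 without 1x salt 2, 1x salt 3 or no salt 2, 3 or 4, fits in which WRKY33 and WRKY38 lost their calls (highest adjusted p = 0.0666 and 0.123). With the block 1 of the 16, WRKY38, was called, and WRKY46, WRKY40 and WRKY29 had adjusted p = 0.088, 0.0781 and 0.0748. Among 19 pattern receptors and early kinases, RLP23 (AT2G32680), a receptor-like protein for microbial NLP peptides, fell by 1.33 (SE 0.16, adjusted p = 0.00365), and MPK11, SOBIR1 and PEPR2 also fell. The chitin co-receptor gene LYK4 (AT2G23770) rose by 0.75 (adjusted p = 0.0109, and 0.0688 with the block). The flagellin receptor FLS2 did not pass (difference 0.26). With the block RLP23 alone of these 19 was called. The 5 calls became 9 without 1x salt 1, 3 without 1x salt 2, 1x salt 3 or no salt 2, and 2 without no salt 3 or 4.

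Of the 14 cold, touch and wound genes 9 fell and 5 did not pass, with a median of -1.43. CBF1 (AT4G25490), a factor of cold acclimation, had 9.20, 9.10 and 9.31 in 1x salt, against 11.61, 11.56, 11.71 and 11.88 in no salt (difference -2.48, SE 0.11, adjusted p = 0.000168). The 3 columns of 1x salt were alike here. MYB15 (AT3G23250), a regulator of cold and lignin genes, had 8.17, 8.64 and 8.71, against 10.63, 11.59, 11.62 and 11.68 (difference -2.87, SE 0.28, adjusted p = 0.00177). DREB1A (AT4G25480, CBF3) had 11.43, 10.49 and 10.52, against 12.89, 12.63, 12.60 and 12.84 (difference -1.93, SE 0.23, adjusted p = 0.00421). The others of the list that fell were CBF2, ZAT10, CML38, ZAT12, SZF2 and ZAT6, by 2.16, 1.76, 1.52, 1.35, 1.19 and 0.66. With the block 5 stayed called (CBF1, MYB15, DREB1A, SZF2 and ZAT12). The falls were 11 without 1x salt 1, 9 without no salt 1, and 6 without any other sample. Between 1x and no-salt samples of the same number, the list median was -0.74, -1.71 and -1.93 for samples 1, 2 and 3.

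The ERF factors, which act in ethylene and wound signalling, split the 1x salt columns. The median over 13 ERF genes was -0.64 in 1x salt 1, and -2.07 and -2.23 in 1x salt 2 and 3. ERF5 (AT5G47230) had 10.27, 8.60 and 8.35 in 1x salt, against 11.27, 11.97, 11.75 and 12.06 in no salt (difference -2.69, SE 0.45, adjusted p = 0.0147). ERF1 (AT3G23240) had 8.92, 8.45 and 8.81, against 10.38, 11.11, 11.23 and 11.43 (difference -2.31, SE 0.25, adjusted p = 0.00284). ERF4 (AT3G15210) fell by 0.95 (adjusted p = 0.009). ERF14 (AT1G04370) was undetected in 1x salt, a fall of at least 4.50-fold (adjusted p = 0.00683). With ERF13 and ERF11, which fell by 2.47 and 2.35, 6 of the 13 fell, and all 13 differences were below 0.

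The ERF count was 12 without 1x salt 1, and 3 without 1x salt 2 or any of no salt 2 to 4. With the block ERF4 alone was called (0.126 for ERF5, 0.0539 for ERF1 and 0.0613 for ERF14). ERF5 lost its call without no salt 2, 3 or 4 or 1x salt 2 (up to 0.0564). ORA47 (AT1G74930), a jasmonate-linked factor of the same family, fell by 2.54 (SE 0.41, adjusted p = 0.0124, and 0.131 with the block). Of 24 jasmonate genes 2 fell, against 3.42% of all loci. The regulator MYC2 (AT1G32640) and the repressor JAZ1 (AT1G19180) fell by 1.02 and 0.97 (adjusted p = 0.00954 and 0.0362). Both calls were lost with the block (adjusted p = 0.0647 and 0.193). The block called JAZ10 alone, and as a rise. Scanner values gave 1 jasmonate call. The 2 jasmonate falls became 3 rises and 3 falls without 1x salt 1, 5 falls without no salt 1, and 1 fall without any other sample.

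The anthocyanin genes showed the opposite split, with the lowest values in 1x salt 1. The median over 15 flavonoid and anthocyanin genes was -2.16 in 1x salt 1, and -0.75 and -0.67 in 1x salt 2 and 3, and all 15 differences were below 0. PAP1 (AT1G56650), the MYB factor that switches on anthocyanin synthesis, had 12.43, 12.91 and 13.02 in 1x salt, against 14.67, 14.76, 14.92 and 14.68 in no salt (difference -1.97, SE 0.16, adjusted p = 0.000887). PAP2, TT5 (AT3G55120, chalcone isomerase) and GSTF12 (AT5G17220), which carries anthocyanin to the vacuole, fell by 1.99, 0.82 and 0.98 (adjusted p = 0.0227, 0.0174 and 0.0191). LDOX (AT4G22880), anthocyanidin synthase, was chosen after its values were seen. It had 7.85, 10.42 and 10.44, against 11.10, 11.32, 11.37 and 11.34 (difference -1.71, SE 0.59, adjusted p = 0.15). All 3 values lay below no salt, yet column 1 was more than 2 below the other two. Of the 15 genes 4 fell. The count was 11 without 1x salt 1, 2 without no salt 4, and 1 without no salt 2 or 3, and with the block PAP1 alone was called (PAP2 0.123, TT5 0.0798 and GSTF12 0.113).

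ARD3 (AT2G26400), of methionine salvage, had 4.94, 4.82 and 4.81 in 1x salt, against 10.26, 8.78, 8.44 and 8.82 in no salt, and was detected on 1 of the 3 1x arrays (difference -4.22, SE 0.40, adjusted p = 0.0016). LSU1 (AT3G49580), induced by low sulfur, had 10.27, 9.56 and 9.65, against 12.52, 12.55, 12.77 and 12.65 (difference -2.80, SE 0.18, adjusted p = 0.000465). NAS1 (AT5G04950), a synthase of the metal chelator nicotianamine, was undetected in 1x salt, a fall of at least 7.07-fold (adjusted p = 0.000587). Each of these 3 kept its call with the block and without any 1 sample. Of 16 iron genes NAS4 (AT1G56430) and the regulator PYE (AT3G47640) also fell, by 1.58 and 0.48 (adjusted p = 0.00885 and 0.0196, and 0.0915 and 0.11 with the block). The amino acid transporter genes UMAMIT19 (AT1G21890) and UMAMIT36 (AT1G70260) both fell, with differences of -3.53 and -3.15 (adjusted p = 0.0098 and 0.000804). UMAMIT19 was detected on 1 and UMAMIT36 on 2 of the 3 1x arrays, so their 1x values lay near background. UMAMIT36 had 6.21, 5.50 and 5.05 in 1x salt, against 8.81, 8.74, 8.65 and 8.77 in no salt. The factor NAC090 (AT5G22380) fell by 3.31 (SE 0.35, adjusted p = 0.00242, and 0.0674 with the block).

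In the remaining lists few members passed, and 6.81% of all loci did. Calls of 1 or 2 members in these lists are therefore described gene by gene and not as a change of the list. The 16 photosynthesis genes had 0 calls with limma and 2 at an unadjusted p under 0.05, and their median was 0.47, -0.07 and -0.35 in 1x salt 1 to 3. The 8 phosphate starvation genes had 0 calls and 5 at an unadjusted p under 0.05, with differences from -0.38 to 0.63. Of 10 oxidant genes, the NADPH oxidase gene RBOHF (AT1G64060) rose by 0.66 and its relative RBOHD (AT5G47910) fell by 1.14 (adjusted p = 0.0155 and 0.0243). Most of the planned glutaredoxins of the CC type could not be matched by name and were left out. Of the 4 kept, ROXY2 (AT5G14070), undetected in no salt, rose at least 2.33-fold (adjusted p = 0.00505), and GRX480 (AT1G28480) fell by 1.87 (adjusted p = 0.023). Of 15 clock genes, ELF4 (AT2G40080) rose by 1.05 (adjusted p = 0.0178), and of 21 glucosinolate genes the guard cell myrosinase TGG1 (AT5G26000) rose by 0.64 (adjusted p = 0.0192). TGG1 and GORK were the 2 of 14 guard cell markers that rose. BZIP60 and SHD, among 12 genes of the endoplasmic reticulum, fell by 0.80 and 0.43 (adjusted p = 0.0151 and 0.0422), HSFB2A, of 13 heat shock genes, fell by 0.53 (adjusted p = 0.0374), and of 8 pavement cell and trichome markers KCS10 and PDF1 rose by 0.65 and 1.07 and TRY fell by 0.83 (adjusted p = 0.0101, 0.0325 and 0.026). Of 8 senescence genes only SAG29, described above, was called. With the replicate block none of the calls in this paragraph except that of SAG29 remained, with adjusted p from 0.0604 to 0.191, and, apart from SAG29, ROXY2 and KCS10, each was lost without at least 1 sample (up to 0.125). Without 1x salt 1, the clock list had 4 rises and 3 falls, the heat shock list 5 and 1, the glucosinolate list 2 and 4, and the photosynthesis list 0 and 2. With scanner values SHD did not pass (adjusted p = 0.0674), and the calls were 4 for the clock, 2 for glucosinolate and heat shock, and 1 for the endoplasmic reticulum and guard cell marker lists.

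**Figure D4:**
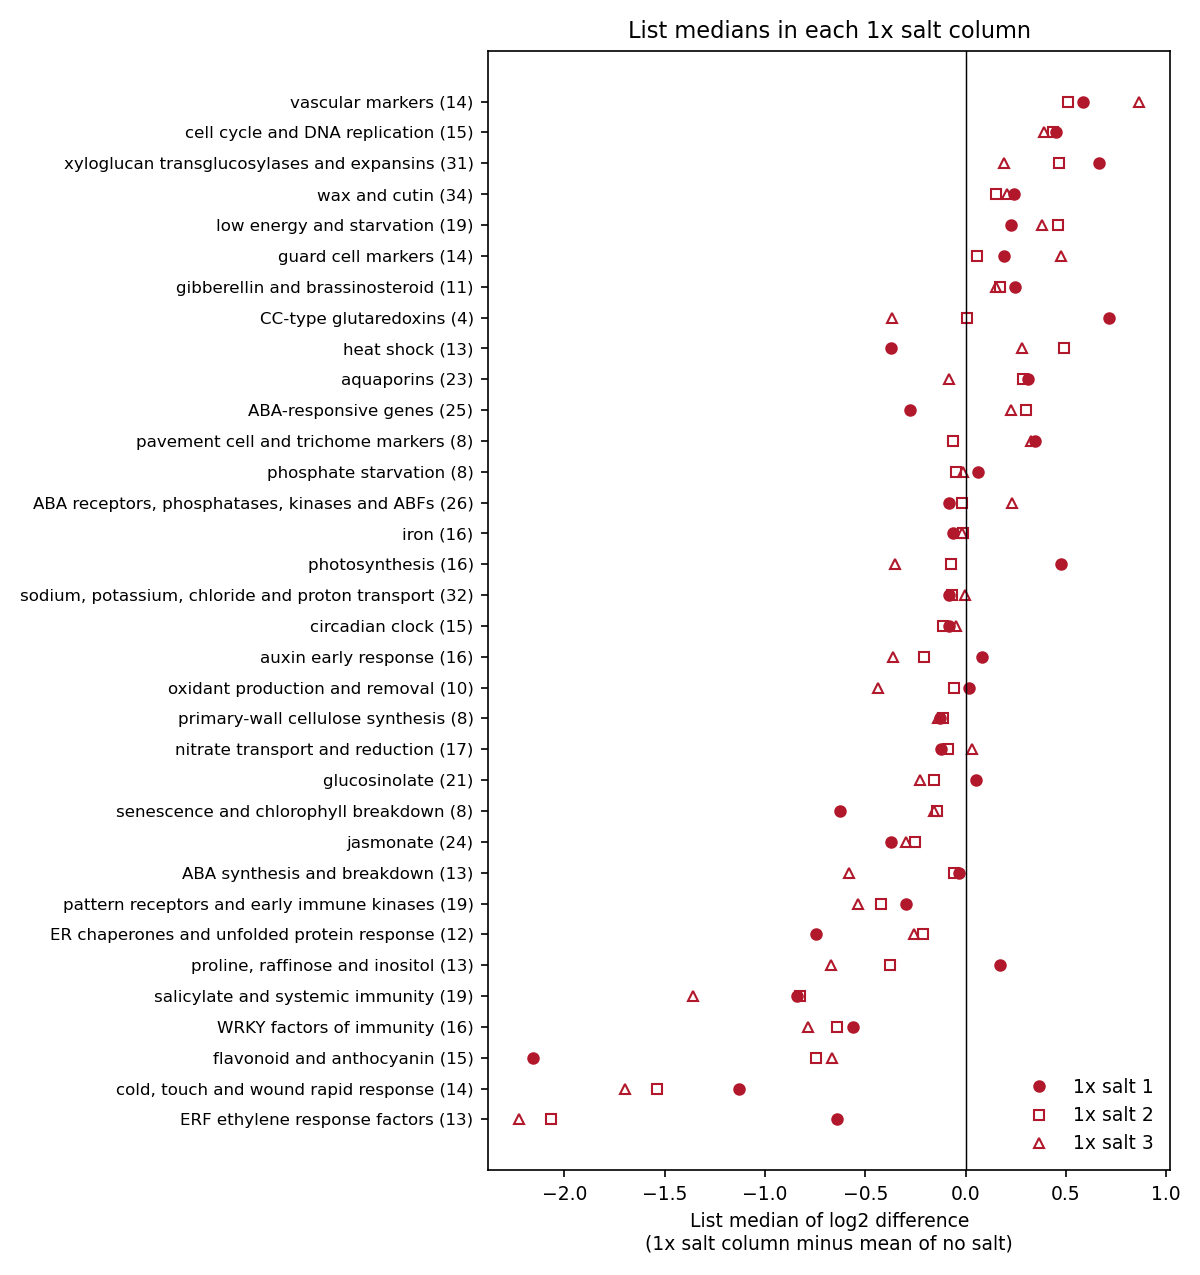
Median over each gene list (number of genes in brackets) of the log2 difference between a 1x salt column and the mean of the no-salt columns, with 1 symbol per 1x salt column. The ERF list lies at -0.64 in 1x salt 1 and near -2 in the other columns, the flavonoid list at -2.16 in 1x salt 1 and near -0.7 in the others, while the cell cycle list lies at 0.39 to 0.45 in all 3.

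The loci with 1x salt 1 inside the no-salt range and 1x salt 2 and 3 both at least 1 beyond it numbered 37 above and 41 below. Their choice uses the values, so they are given without a test, and they had no call among the 1957. LTP3 (AT5G59320), another lipid transfer protein gene, had 12.44, 14.67 and 14.33 in 1x salt, against 12.31, 12.31, 12.68 and 12.40 in no salt. MPL1 (AT5G14180), a lipase gene, had 5.97, 8.57 and 8.52, against 5.85, 6.28, 6.57 and 6.44. NRT2.6 (AT3G45060), of the high-affinity nitrate transporter family, had 5.26, 7.02 and 9.22, against 5.74, 5.23, 5.51 and 5.43. In NRT2.6 columns 2 and 3 also differed from each other by more than 2. RHD2, BZS1 and MT1C were the others above the range with the highest mean of columns 2 and 3 over no salt.

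Below the range, ERF6 (AT4G17490) had 13.05, 10.45 and 10.33 in 1x salt, against 12.36, 13.08, 13.24 and 13.29 in no salt, and MYB77 (AT3G50060) had 14.32, 12.06 and 12.13, against 13.69, 14.73, 14.77 and 14.75. The defensin gene PDF1.2b (AT2G26020) had 7.40, 5.23 and 4.95, against 7.93, 7.55, 7.72 and 7.38. BGLU47, PDF1.3 and ERF-1 (AT4G17500, ERF1A) followed. Column 1 lay inside the no-salt range in all of these, and columns 2 and 3 lay close to each other in ERF6, MYB77 and PDF1.2b. In the other direction, 30 loci lay at least 1 above and 37 at least 1 below the no-salt range in column 1 alone, with columns 2 and 3 inside it.

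**Figure D5:**
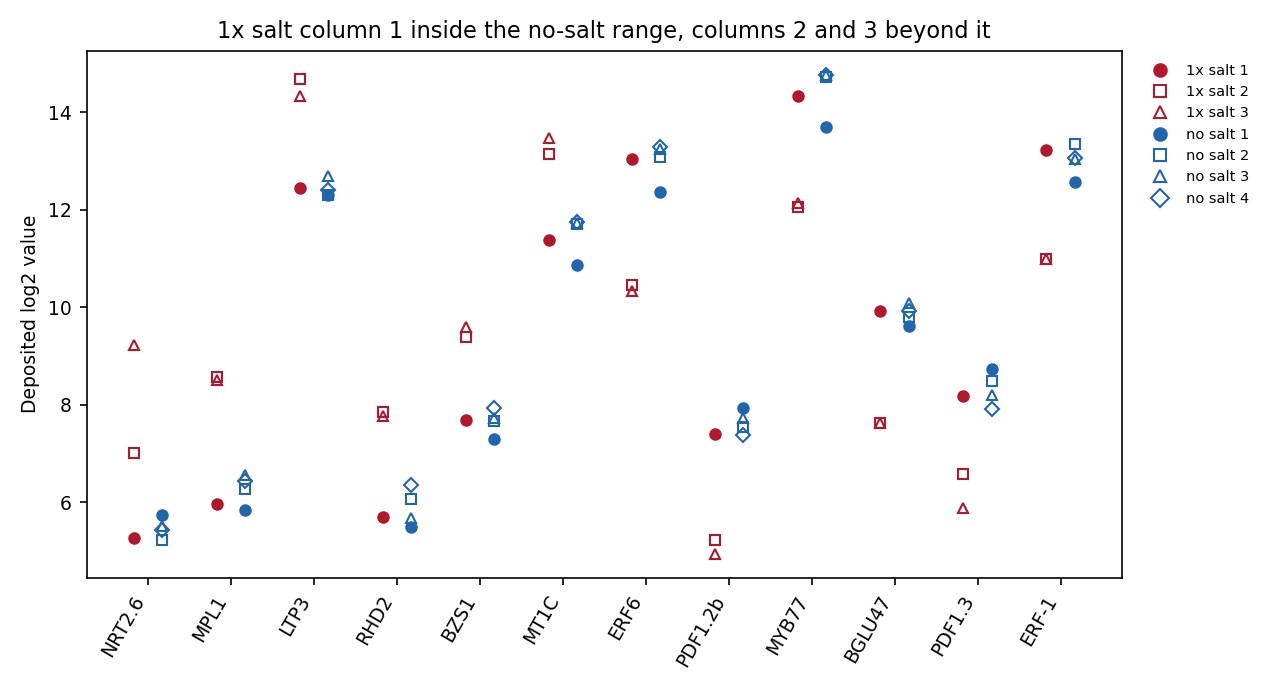
Deposited log2 values, in every 1x salt column (red, left of each gene) and no-salt column (blue, right), of the 6 loci above and 6 below the no-salt range in 1x salt 2 and 3 with 1x salt 1 inside it. The loci were chosen by these values, and the filled red circles of 1x salt 1 lie among the blue no-salt points.

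The single round was last set against 3 rounds, tested directly in a fit of all 11 columns. At an adjusted p of 0.05, 6925 loci (24.1%) differed between 1x and 3x salt, 2921 (10.2%) higher and 4004 (13.9%) lower in 1x salt. Of the 975 loci that rose in 1x salt, 511 also differed from 3x salt, 430 of them higher in 1x than in 3x salt and 81 lower. Of the 982 that fell, 361 differed, 216 lower in 1x than in 3x salt and 145 higher. The 1x salt columns enter both tests, so these counts are not independent.

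Among the largest rises, XTH33 averaged 10.52 in 1x and 10.04 in 3x salt (difference 0.48, SE 0.73, adjusted p = 0.695), and PYL5 averaged 11.74 in 1x and 11.13 in 3x salt (adjusted p = 0.377). CWINV5, GASA3, TSPO and LTP4 rose far less in 1x salt 1 than in 1x salt 2 and 3. They were lower in 1x than in 3x salt, with differences of -3.15, -2.29, -2.20 and -2.08 (adjusted p = 0.00183, 0.00417, 0.0154 and 0.0151). NRT1.8, whose rise was also small in 1x salt 1, differed from 3x salt by -1.31 and did not pass (adjusted p = 0.0804). XTH25 and XTH9 were higher in 1x than in 3x salt by 0.68 and 1.75 (adjusted p = 0.014 and 0.0111), and ASN1 by 2.15 (adjusted p = 0.0003). NIA2 fell in 1x salt but averaged 12.67 in 3x salt, a difference of -1.98 between 1x and 3x salt (adjusted p = 7.54e-07). NIA1 averaged 10.07 in 1x and 10.26 in 3x salt and did not pass (difference -0.19, adjusted p = 0.161).

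Among the largest falls, FMO1, UMAMIT36, PAD3, NAC090 and NAS1 were lower in 1x than in 3x salt (differences -1.29, -2.66, -2.86, -1.26 and -1.07, adjusted p = 0.00369, 4.71e-05, 0.00185, 0.0107 and 0.00761), and ORA47 was higher in 1x salt by 1.61 (adjusted p = 0.0147). By lists, all 16 photosynthesis genes were higher in 1x than in 3x salt, against 10.2% of all loci, as were 13 of 15 cell cycle genes, 13 of 23 aquaporins, 13 of 31 cell wall genes and 12 of 24 jasmonate genes. The same held for 9 of 14 vascular, 5 of 14 guard cell and 3 of 8 pavement cell and trichome markers. Of the guard cell markers 1 was lower. The part of cell types in this comparison was not tested. Of the ABA-responsive genes 12 of 25 were lower in 1x than in 3x salt and 1 was higher, against 13.9% lower over all loci. The difference between 1x and 3x salt was -1.89 for RAB18 (adjusted p = 0.000363), -1.45 for RD29B (adjusted p = 0.0176) and -3.70 for LEA7 (adjusted p = 0.0241).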

How the data were processed

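The members and gene lists were chosen with earlier results of these data known. The main values are the authors' deposited table of log2 values per locus, whose normalization is not given in the sources used here. Its columns matched the samples by label, and their medians were 8.29 to 8.34. Deposited scanner files give intensity per spot (Feature Extraction 11.5.1.1, as their headers state) and were used for detection and as an alternative, with the brightest probe of a locus. Over 18279 loci with 1 probe, deviations from the locus mean in each scanner file correlated best with those of its own deposited column. That correlation was lowest for 1x salt 1, at 0.941, against 0.973 to 0.986 for the other columns. Symbols and 25183 probe matches came from a RefSeq gene table (TAIR10.1). Of 587 list members, the 562 named there and held in the authors' table were used.

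lmFit and eBayes of limma 3.58.1 (R 4.3.3) were run on the 7 columns, with 5 residual degrees of freedom and Benjamini-Hochberg adjustment over 28718 loci. Every adjusted p comes from limma. 1x against 3x salt used all 11 columns. Undetected means not well above background on every array of a group. Such a locus has a fold given as "at least", against the lowest deposited value of a detected locus per array, or the dim value where that was higher. For the loci so described here, this fold equals that between the group means. It is not a bound for single samples. On simulated data, 58% of changes of 1 and 88% of changes of 2 were recovered and 8 unchanged loci called, for 1x salt against no salt over 28718 loci. The simulated noise was independent between samples, with the same spread in both groups. These figures therefore do not cover samples that lie close together, or groups of unequal spread, as here. Same-numbered 1x and no-salt samples shared slides 1, 2 and 4, and their deviations correlated at 0.18, 0.103 and 0.209. The main fit does not use this pairing. The replicate number entered only as a block in an alternative fit, whose results are given beside the main ones.

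Named genes are 12 loci with a symbol in each direction, by size of change among the called. Added to these were up to 3 called members per list and up to 6 loci each way that 1x salt 1 did not share. A fixed set of 10 genes of ion transport, ABA and proline was always named. Against 3x salt, the 4 highest and 4 lowest differences that passed among the 12 loci each way were taken, whatever their sign. Array number limits the precision. Promoters were not analysed here. Python 3.11.15 with pandas 2.3.3 and matplotlib 3.10.9 made the plots.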

Additional observations from a re-analysis of the deposited data

Results flagged for a closer look

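In 17 of the 112 named loci 1 of the 4 no-salt columns stood apart from the other 3 by Dixon's test at 95%, which chance gives in about 1 of 20 groups. For most of the 17 that column was no salt 1, and the cause was not tested. No salt 1 was the low value for BFT (6.74, others 7.40 to 7.50), NRT1.8 (5.45, others 6.21 to 6.24), MYB15 (10.63, others 11.59 to 11.68), NAS1 (7.42, others 7.79 to 7.86), NAS4 (9.11, others 9.77 to 9.85), KCS1 (13.51, others 14.17 to 14.25), RBOHF (AT1G64060, 9.85, others 10.03 to 10.07), MT1C (10.87, others 11.71 to 11.76), MYB77 (13.69, others 14.73 to 14.77) and HKT1 (4.95, others 5.62 to 5.71). It was the high value for PAD3 (10.56, others 9.36 to 9.43), NAP (12.52, others 11.17 to 11.29) and GASA14 (AT5G14920, 12.22, others 11.82 to 11.86). No salt 2 was high for DELTA-TIP (8.15, others 7.96 to 7.99) and low for ROXY2 (4.78, others 4.95 to 4.99). No salt 3 was high for XTH25 (7.89, others 7.56 to 7.58), and no salt 4 was low for TGG1 (12.75, others 13.06 to 13.11).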

How the results depend on the processing

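The 1957 loci called (975 higher, 982 lower) became 3748 (1762 and 1986) with array weights and 3112 (1513 and 1599) with slide as a random block, which kept all 1957. They became 865 (429 and 436) at a change of at least 1, 514 (323 and 191) with the replicate block, of which 484 were shared, and 0 (0 and 0) with close arrays averaged. Leaving out 1 sample gave 911 to 3652 loci called, 532 to 1767 higher and 379 to 1885 lower. Scanner values, normexp on median intensities with quantile scaling, all 11 columns in 1 fit, trend with robust eBayes, and a detection filter gave 2168 to 2633 calls. Scanner values put 58.3% of calls higher, against 49.8% for the deposited values. For 1x against 3x salt each alternative stayed within 1.5 times 6925. Of 112 named loci 94 were called, of which 59 stayed called without any 1 sample, 39 with the replicate block and 85 with scanner values. Leaving out 1 sample moved SOS1 between -0.2253 and 0.0333 (positive without 1x salt 3) and HKT1 between -0.225 and 0.1426. HKT1 also turned to 0.7356 with scanner values, 0.0267 with the replicate block, 0.171 with close arrays averaged, 0.0039 without no salt 3, 0.0267 without no salt 4 and 0.1426 without 1x salt 3, with no call in any. The causes were not tested. Signal over background limits CWINV5, GASA3, ROXY2, AHG1, NAS1, ALD1 and ERF14, which were below background in 1 group.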
